A study of Mus musculus with 9 samples.

Results

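The 44 protein-coding mouse genes whose symbol has the form Col, number, a, number (Col1a1 and the like) encode the chains of the collagen family, and all of them were found among the 55401 genes of the table by their Ensembl identifiers. Of these, 38 reached at least 10 normalized counts in at least 3 of the 9 libraries and entered the tests. The other 6 were present at lower counts and are accounted for below. Messenger RNA was measured by bulk RNA sequencing in primary fibroblasts from the skin of newborn wild-type mice, grown in DMEM with 10% serum. A control group, a group treated with medium conditioned for 24 h by YUMM1.7 cells, a mouse melanoma line (tumour-conditioned medium, TCM), and a group treated with the same kind of medium after treatment with the lipid-removing reagent Cleanascite (lipid-depleted TCM) had 3 libraries each. The labels do not give the medium of the control cells, the length of the treatment or whether libraries of a group came from separate animals or cultures, so p-values measure the spread between these libraries, which may be technical. Control medium treated with the reagent was not analysed here, so removal of lipids and any other effect of the reagent cannot be told apart.

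Every collagen molecule is built from alpha chains wound around each other, either identical or in fixed mixtures, and many mixtures need chains made from different genes. Fibrillar collagens form the tensile fibres of the dermis. Network collagens form sheets such as basement membranes, fibril-associated collagens decorate the surface of fibres, and the remaining chains form beaded filaments, anchoring fibrils, transmembrane proteins and proteins of the basement membrane zone. Dermal fibroblasts are the main source of the fibre-forming chains of skin.

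Libraries held between 51015024 and 64965906 reads in genes. A normalized count is a read count divided by the library's size factor, and a log2 change below is a difference of mean log2(normalized count + 1), and the added 1 makes changes of scarce genes look smaller. Libraries within the TCM group differed from each other more than those of the other groups, with a chi-square per degree of freedom of 16.02 to 39.04 between pairs against 2.47 to 6.91 among controls and 3.43 to 8.19 among lipid-depleted TCM libraries. TCM replicate 1 had the lowest count of the TCM group for 22 of the 38 tested chains, and TCM replicate 3 the highest for 21. The share of reads from the mitochondrial genome was 1.78% to 1.87% in control, from 2.69% to 3.16% in TCM and from 1.85% to 2.15% after lipid depletion. With those genes left out, the collagen share of reads described next differed by -3.004 percentage points between TCM and control, against -2.99 with them. Bulk counts do not tell fewer cells of a type apart from less RNA per cell.

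Collagen chains made up 7.05%, 7.14% and 7.18% of the reads of the 3 control libraries. They made up 3.84%, 4.14% and 4.41% in TCM, and 4.91%, 5.01% and 5.02% in lipid-depleted TCM. The groups did not overlap, and the lipid-depleted libraries lay between the other groups. The mean share was 7.12% ± 0.0672 in control, 4.13% ± 0.286 in TCM and 4.98% ± 0.0581 after lipid depletion (SD, n = 3 each), and each of the 3 pairwise differences had a two-sided exact permutation p of 0.1, the smallest that 3 libraries against 3 allow. Col1a1 held the largest part of the net loss of normalized counts in TCM, with 32.2% of it, followed by Col1a2 with 21.3%, Col12a1 with 17.2%, Col6a3 with 8.12%, Col5a1 with 6.43% and Col5a2 with 4.06%. These counts are not divided by transcript length, so longer transcripts weigh more. The normalized total of all genes was also lower in TCM than in control, and the net collagen loss equalled 33.1% of that difference. The total depends on the size factors and its difference is a net of rises and falls, so this is not a part of a whole. The same calculation gave 151% for lipid-depleted TCM against TCM and 26.8% for lipid-depleted TCM against control.

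**Figure D1:**
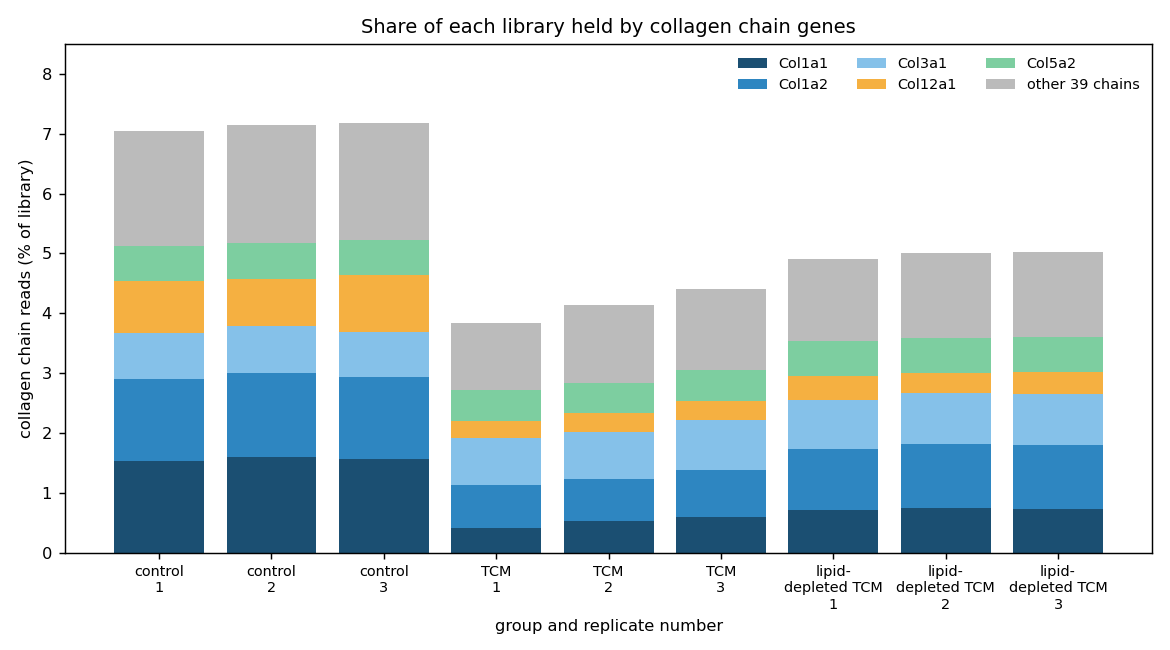
Stacked bars give, for each of the 9 libraries, the percentage of reads in collagen chains (y axis), split into Col1a1, Col1a2, Col3a1, Col12a1, Col5a2 and the other chains. The stack is tallest in control (7.05% to 7.18%), shortest in TCM (3.84% to 4.41%) and between them in lipid-depleted TCM (4.91% to 5.02%), while the Col3a1 segment keeps nearly the same height.

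The make-up of the collagen pool also differed between groups. Col1a1 supplied 21.8%, 22.3% and 21.7% of collagen reads in control, 10.7%, 12.6% and 13.6% in TCM, and 14.4%, 15.0% and 14.6% in lipid-depleted TCM. Col3a1 supplied 10.9%, 10.9% and 10.5%, then 20.5%, 19.0% and 19.0%, then 16.7%, 17.1% and 17.1% in the same order. The groups were separate for both genes and in opposite order. Per kilobase of transcript, the mean of Col1a1 was 156373 normalized counts in control, close to the 153658 of Col1a2 and above the 81954 of Col3a1. In TCM the mean was 76759 per kilobase for Col3a1, 72894 for Col1a2 and 46005 for Col1a1, and Col3a1 ranked first in each of the 3 TCM libraries. The difference between the TCM means of Col3a1 and Col1a2 was of similar size to the SD of either gene, 3250 and 4415 per kilobase.

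Against control, 25 of the 38 tested chains fell and 7 rose in TCM (limma, Benjamini-Hochberg adjusted p below 0.05 over all 16950 genes tested). Over all genes tested, 31.0% fell and 29.5% rose in the same comparison. The median log2 change of the tested chains was -0.71, against -0.00 over all genes tested. With a change of at least 2-fold as well, 16 chains fell and 4 rose, and the same rule called 8.24% of all genes lower and 5.26% higher. Of the 11 fibrillar chains 9 fell and 1 rose. Of 8 tested network chains 5 fell and 2 rose, of 7 tested fibril-associated chains 5 fell and 1 rose, and of 12 other tested chains 6 fell and 3 rose. When each library was scaled to the same total, 24 chains fell and 7 rose, while the calls over all genes went from 5253 lower and 4995 higher to 3685 lower and 7255 higher.

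Between lipid-depleted TCM and TCM, 17 tested chains were higher and 6 lower in the lipid-depleted group, beside 22.7% of all genes higher and 22.5% lower. The median log2 difference of the tested chains was 0.18, and that of all genes 0.01. By class, there were 7 fibrillar chains higher and 1 lower, 4 network chains and 5 fibril-associated chains higher with 0 lower in either class by limma, and 1 of the other chains higher with 5 lower. Leaving out single libraries gave between 14 and 19 chains higher and between 5 and 7 lower. At 2-fold or more, 5 chains were higher and 1 lower, against 3.12% and 2.96% of all genes.

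Lipid-depleted TCM was also compared with control, and 24 tested chains were lower and 4 higher, beside 30.6% of all genes lower and 29.4% higher. The median log2 difference was -0.43 for the tested chains and 0.00 for all genes. At 2-fold or more, 8 chains were lower and 2 higher, against 7.90% and 5.98% of all genes. The 3 comparisons share libraries pairwise, so their values are set side by side here and are not independent of each other. With equal library totals the count of lower chains was 18 and that of higher chains 5, while the calls over all genes went from 5184 lower and 4984 higher to 3698 lower and 7044 higher.

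**Figure D2:**
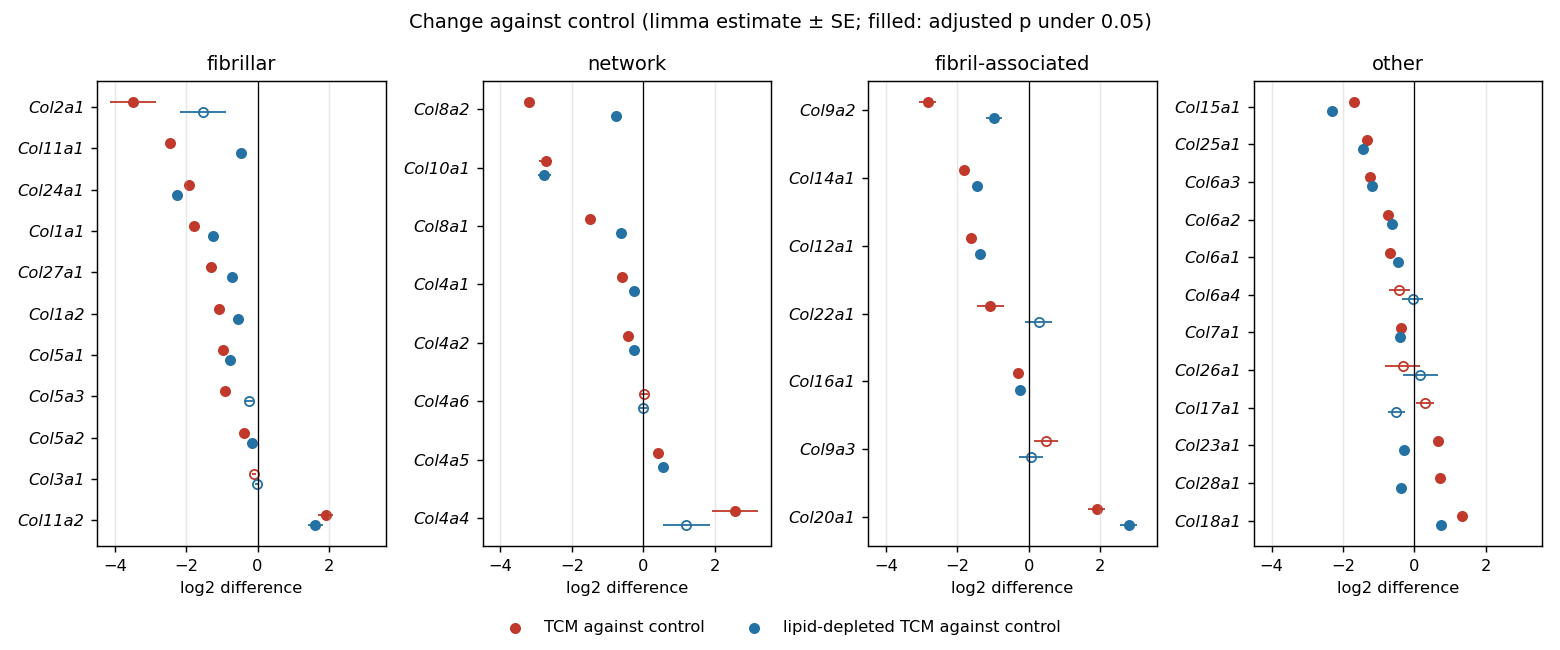
For each of the 38 tested chains, by class, points give the limma log2 difference from control in TCM (red) and in lipid-depleted TCM (blue) with SE bars; filled points have an adjusted p below 0.05 and open points do not. Most red points lie left of 0, and the distance between red and blue is widest for Col8a2 (-3.20 and -0.77) and Col11a1 (-2.44 and -0.46) among the chains with over 500 normalized counts.

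**Figure D3:**
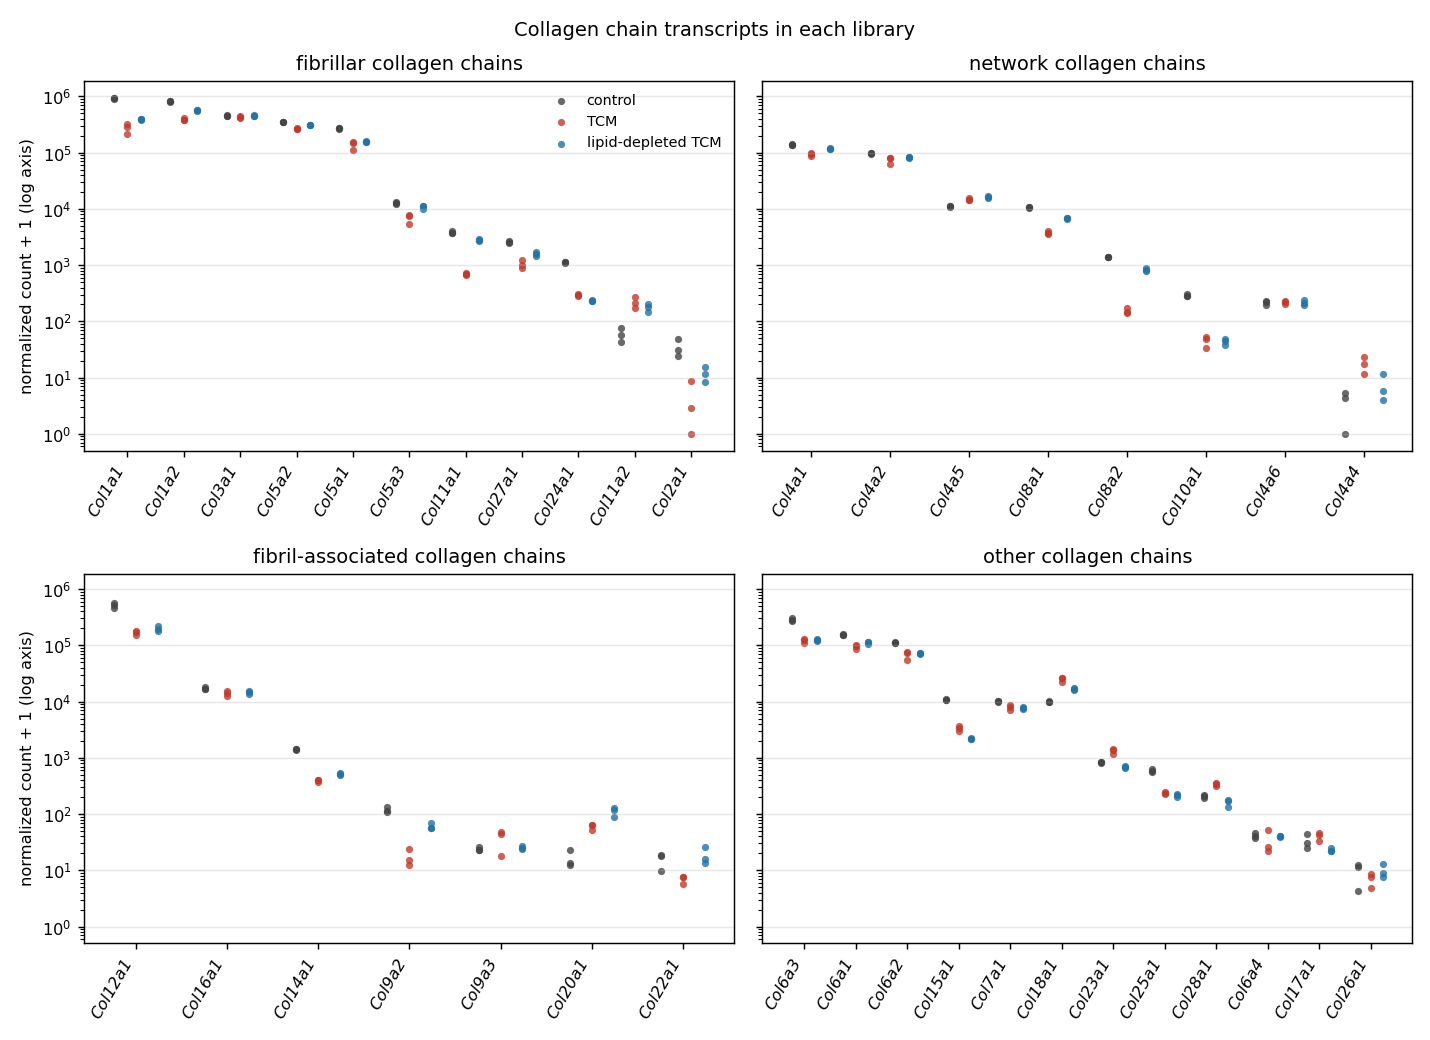
Normalized counts plus 1 (log axis) of the 38 tested chains in each of the 9 libraries, by class and in order of the control mean, with 3 points for each group. The panels show levels from 941587 in the highest control library of Col1a1 down to 0 for the scarcest chains, and the 3 points of a group lie close together except for chains at low counts.

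Type I collagen, the main fibre of the dermis, is a mixture that holds more of the Col1a1 chain than of the Col1a2 chain. Col1a1 had 906710, 941587 and 933570 normalized counts in control, 215292, 282663 and 320470 in TCM, and 380379, 400697 and 392197 in lipid-depleted TCM. No library of one group reached the range of another. Col1a1 fell by 1.78 on the log2 scale in TCM (SE 0.11, limma adjusted p = 1.95e-08), which is 3.44-fold lower. Lipid-depleted TCM was 1.45-fold above TCM (log2 0.54, limma adjusted p = 0.00139) and 2.37-fold below control (log2 -1.25, limma adjusted p = 5.67e-07). Its partner Col1a2 had 807417, 833072 and 824806 in control, 373621, 378956 and 416926 in TCM, and 550764, 563006 and 567175 in lipid-depleted TCM. The order of the groups was the same and again without overlap. The log2 change of Col1a2 was -1.08 in TCM (SE 0.06, limma adjusted p = 4.56e-09), 0.52 between lipid-depleted TCM and TCM (limma adjusted p = 9.2e-06) and -0.55 between lipid-depleted TCM and control (limma adjusted p = 2.43e-06).

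Col3a1 encodes the single chain of type III collagen, which forms thin fibres together with type I collagen in skin. It had 455847, 461711 and 450420 normalized counts in control, 410056, 425132 and 446064 in TCM, and 440901, 454956 and 461440 in lipid-depleted TCM. All TCM libraries lay below all control libraries, by a small margin, and the lipid-depleted libraries overlapped both groups. The log2 change was -0.10 in TCM (SE 0.05, limma adjusted p = 0.126), 0.08 between lipid-depleted TCM and TCM (limma adjusted p = 0.206) and -0.01 between lipid-depleted TCM and control (limma adjusted p = 0.862). None of these passed the test, and the direction against control depended on scaling. With equal library totals the value against control became 0.06 in TCM (limma adjusted p = 0.286) and 0.14 in lipid-depleted TCM (limma adjusted p = 0.0268).

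The stretch of 250 bases before the annotated start of Col3a1 and of Col11a1, the fibrillar chain with the largest fall among those above 500 normalized counts, are shown because Col3a1 had the smallest change of the fibrillar chains. Both come from RefSeq on GRCm38.p6, at chr1:45311288-45311537 on the plus strand and chr3:114030290-114030539 on the plus strand, and are written 5′ to 3′. Capitals mark matches to the CCAAT box (CCAAT), the GC box (GGGCGG), the TATA box (TATAAA) and the SMAD box (CAGACA), searched on both strands.
Col3a1: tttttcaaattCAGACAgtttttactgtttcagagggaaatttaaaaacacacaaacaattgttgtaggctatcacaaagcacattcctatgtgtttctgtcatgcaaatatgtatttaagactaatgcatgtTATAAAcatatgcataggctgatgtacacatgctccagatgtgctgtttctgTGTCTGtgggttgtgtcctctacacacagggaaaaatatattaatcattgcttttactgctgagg
Col11a1: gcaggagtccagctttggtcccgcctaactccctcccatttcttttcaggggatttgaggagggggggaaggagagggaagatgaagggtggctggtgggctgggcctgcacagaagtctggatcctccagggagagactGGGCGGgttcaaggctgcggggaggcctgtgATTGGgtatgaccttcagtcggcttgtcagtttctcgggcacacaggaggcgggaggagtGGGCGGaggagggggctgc
The Col3a1 window held 1 TATAAA, beginning 117 bases before the start, and 2 CAGACA matches, 239 and 65 bases before it. The Col11a1 window held 1 CCAAT match, 79 bases before the start, and 2 GGGCGG matches, at 110 and 19 bases. Of 32851 mouse promoter windows of this length, 33.8% held CCAAT, 32.7% GGGCGG, 12.4% TATAAA and 17.1% CAGACA on either strand. Among the 38 windows matched to 35 of the collagen genes, 13 held CCAAT, 22 GGGCGG, 5 TATAAA and 9 CAGACA. These matches describe the letters only.

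Type V collagen sits inside type I fibres and limits their width, and the closely related type XI chains do so in cartilage. Col5a1 had 263000, 273129 and 269753 in control, 112964, 147464 and 153989 in TCM, and 155429, 159456 and 157251 in lipid-depleted TCM. Both treated groups were below control and the lipid-depleted libraries only just cleared the highest TCM library. It had a log2 change of -0.97 in TCM (limma adjusted p = 1.07e-06) and -0.77 in lipid-depleted TCM (limma adjusted p = 8.87e-06). Their difference of 0.20 was not called (limma adjusted p = 0.0874), although without TCM replicate 2 or 3 it was, at limma adjusted p = 0.0456 and 0.0216.

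Col5a2, the partner of Col5a1 in type V, had 348900, 355716 and 352484 in control, 264872, 267843 and 277399 in TCM, and 315672, 314526 and 315493 in lipid-depleted TCM. Its 3 groups were separate and its changes were smaller than those of Col5a1. Its log2 change was -0.38 in TCM (limma adjusted p = 9.3e-06) and 0.22 for lipid-depleted TCM over TCM (limma adjusted p = 0.00141). The remaining -0.16 against control (limma adjusted p = 0.00777) was not called with equal library totals, at -0.01 (limma adjusted p = 0.831), or with no filter (limma adjusted p = 0.0569). Col5a3, another type V chain, had 12279, 13244 and 12850 in control, 5425, 7401 and 7906 in TCM, and 9996, 11290 and 11077 in lipid-depleted TCM. It fell in TCM (log2 -0.91, limma adjusted p = 1.08e-05) and was higher in lipid-depleted TCM than in TCM (log2 0.66, limma adjusted p = 0.000307), and the log2 difference of -0.25 between lipid-depleted TCM and control was not called (limma adjusted p = 0.0645), although it was in DESeq2 (adjusted p = 0.0365) and without TCM replicate 1 or 3 (limma adjusted p = 0.000301 and 0.0394).

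Col11a1 had 3744, 3765 and 3970 normalized counts in control, 699, 673 and 736 in TCM, and 2782, 2727 and 2854 in lipid-depleted TCM. The TCM libraries stood far below the rest, and the lipid-depleted libraries lay near but below control. It fell by 2.44 on the log2 scale in TCM (SE 0.05, limma adjusted p = 1.35e-12), or 5.44-fold. In lipid-depleted TCM it was 3.97-fold above TCM (log2 1.99, limma adjusted p = 7.6e-11) and log2 -0.46 from control (limma adjusted p = 5.95e-06).

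The minor fibrillar chain Col27a1 had 2548, 2695 and 2476 in control, 883, 1022 and 1218 in TCM, and 1463, 1692 and 1593 in lipid-depleted TCM. It followed the same order, with log2 changes of -1.32 in TCM (limma adjusted p = 1.25e-07), 0.61 for lipid-depleted TCM over TCM (limma adjusted p = 0.000237) and -0.70 against control (limma adjusted p = 4.04e-05). Col24a1, another minor fibrillar chain, had 1086, 1138 and 1124 in control, 279, 298 and 309 in TCM, and 225, 225 and 243 in lipid-depleted TCM. Here lipid-depleted TCM was the lowest group. The change on the log2 scale was -1.92 in TCM (limma adjusted p = 3.36e-10) and -2.27 in lipid-depleted TCM (limma adjusted p = 6.9e-11), with a difference of -0.35 between them (limma adjusted p = 0.00215). Col24a1 was the only fibrillar chain called lower in lipid-depleted TCM than in TCM by limma.

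Col11a2, a type XI chain best known from cartilage, was the fibrillar chain that rose. It had 74.4, 56.7 and 42.7 in control, 215, 175 and 266 in TCM, and 144, 206 and 183 in lipid-depleted TCM. Both treated groups lay above control and overlapped each other. Its log2 change was 1.91 in TCM (limma adjusted p = 5.7e-06) and 1.62 in lipid-depleted TCM (limma adjusted p = 2.52e-05), with -0.29 between them (limma adjusted p = 0.285). Col2a1, the main cartilage collagen chain, was scarce, at 23.0 to 47.5 in control, from 0 to 7.61 in TCM and from 7.45 to 14.2 after lipid depletion. It was called lower in TCM than in control (limma adjusted p = 0.000418) and higher in lipid-depleted TCM than in TCM (limma adjusted p = 0.0238). The second call was lost in edgeR (adjusted p = 0.0676), without TCM replicate 2 or 3 and without lipid-depleted TCM replicate 2 or 3 (limma adjusted p from 0.0523 to 0.0848), and in a fit of these groups alone (limma adjusted p = 0.0542). Against control, lipid-depleted TCM was at log2 -1.52 for Col2a1 without a call (limma adjusted p = 0.0556). This difference was called in edgeR (adjusted p = 0.00908), DESeq2 (adjusted p = 0.00477) and a fit of the 2 groups alone (limma adjusted p = 0.000803).

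Col4a1 and Col4a2 encode the chains of the common basement membrane network. Col4a1 had 136546, 142839 and 138802 in control, 85566, 94889 and 97682 in TCM, and 114659, 119880 and 116963 in lipid-depleted TCM. The groups were separate, with lipid-depleted TCM in the middle. Col4a1 had a log2 change of -0.59 in TCM (limma adjusted p = 7.67e-07), 0.34 for lipid-depleted TCM over TCM (limma adjusted p = 0.000202) and -0.25 against control (limma adjusted p = 0.00119). Col4a2 had 95696, 100242 and 97997 in control, 62683, 78632 and 79042 in TCM, and 79227, 83442 and 82291 in lipid-depleted TCM. TCM replicate 1 was well below the other TCM libraries, which lay just under the lipid-depleted group. In log2 terms the change was -0.42 in TCM (limma adjusted p = 0.000317) and -0.26 in lipid-depleted TCM (limma adjusted p = 0.00856). The difference of 0.16 between the treated groups was not called (limma adjusted p = 0.1), but was without TCM replicate 2 (limma adjusted p = 0.0382) or replicate 3 (limma adjusted p = 0.0423). The -0.25 and -0.26 of the pair against control were not called with equal library totals (limma adjusted p = 0.087 and 0.162).

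Col4a5 encodes a type IV chain that joins with Col4a6 products in some basement membranes. Unlike Col4a1, it was higher in both treated groups, with 11014, 11113 and 11230 in control, 15572, 14138 and 14604 in TCM, and 16950, 15912 and 16274 in lipid-depleted TCM. The 3 groups did not overlap. The log2 change was 0.41 in TCM (limma adjusted p = 4.56e-06) and 0.56 in lipid-depleted TCM (limma adjusted p = 2.35e-07). Their difference of 0.15 (limma adjusted p = 0.0148) was lost without lipid-depleted TCM replicate 1 (limma adjusted p = 0.0687). Col4a6 stayed between 195 and 235 in all 9 libraries and was called in no comparison (limma adjusted p from 0.841 to 0.983). Col4a4 was scarce, at 0 to 4.25 in control, from 10.5 to 22.7 in TCM and from 3.04 to 10.8 after lipid depletion, and was called higher in TCM than in control (limma adjusted p = 0.00424). Its log2 -1.36 between lipid-depleted TCM and TCM was not called (limma adjusted p = 0.11). It was in edgeR (adjusted p = 0.0494) and in a fit of these groups alone (limma adjusted p = 0.044).

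Among chains above 500 normalized counts, Col8a2 had the largest fall in TCM and the largest rise from TCM to lipid-depleted TCM. Col8a1 and Col8a2 encode type VIII collagen, a component of vessel walls and of the membrane beneath the corneal endothelium. Col8a2 had 1410, 1416 and 1371 normalized counts in control, 144, 142 and 171 in TCM, and 875, 802 and 790 in lipid-depleted TCM. The TCM libraries were far below both other groups, which were also separate from each other. It fell by 3.20 on the log2 scale in TCM (SE 0.08, limma adjusted p = 8.57e-12), or 9.17-fold. Lipid-depleted TCM was 5.39-fold above TCM (log2 2.43, limma adjusted p = 6.08e-10) and still below control (log2 -0.77, limma adjusted p = 4.54e-06). Col8a1 had 10507, 10635 and 10587 in control, 4074, 3652 and 3637 in TCM, and 6976, 6672 and 7005 in lipid-depleted TCM. It had the same order of groups with smaller steps, at log2 -1.48 in TCM (limma adjusted p = 6.57e-11), 0.86 for lipid-depleted TCM over TCM (limma adjusted p = 2.93e-08) and -0.62 against control (limma adjusted p = 2.11e-07).

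The windows before the starts of this pair are shown because Col8a2 had the largest steps and Col8a1 moved in the same order. They come from RefSeq on GRCm38.p6, with the same motifs in capitals and 5′ to 3′. Col8a1 lies at chr16:57754738-57754987 on the minus strand, and Col8a2 at chr4:126286544-126286793 on the plus strand, of which the last base, within an exon, is left out.
Col8a1: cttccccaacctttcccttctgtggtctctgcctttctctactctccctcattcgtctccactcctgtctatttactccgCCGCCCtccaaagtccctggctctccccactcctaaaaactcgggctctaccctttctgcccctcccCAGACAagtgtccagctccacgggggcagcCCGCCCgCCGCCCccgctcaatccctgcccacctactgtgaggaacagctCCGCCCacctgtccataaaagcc
Col8a2: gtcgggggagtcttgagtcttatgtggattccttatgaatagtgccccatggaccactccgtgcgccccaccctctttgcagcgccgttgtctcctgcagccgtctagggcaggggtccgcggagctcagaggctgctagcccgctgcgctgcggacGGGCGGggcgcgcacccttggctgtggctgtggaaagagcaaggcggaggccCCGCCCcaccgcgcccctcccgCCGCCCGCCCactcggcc
Each window held 4 GGGCGG matches on either strand, beginning 170, 73, 66 and 23 bases before the start of Col8a1 and 93, 41, 19 and 15 bases before that of Col8a2, where the last pair overlap. The Col8a1 window also held 1 CAGACA match, at 103 bases. Neither held CCAAT or TATAAA.

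Col10a1, the type X chain known from hypertrophic cartilage, had 284, 287 and 311 in control, 47.5, 52.0 and 32.7 in TCM, and 37.2, 46.6 and 43.0 in lipid-depleted TCM. Both treated groups were far below control and overlapped each other. It had a log2 change of -2.73 in TCM (limma adjusted p = 4.31e-08) and -2.77 in lipid-depleted TCM (limma adjusted p = 3.4e-08), with a difference of -0.04 (limma adjusted p = 0.877). Col10a1 shares 18 exon bases on the opposite strand with Nt5dc1, whose mean was 705 in control, 697 in TCM and 763 after lipid depletion. Of 6 chondrocyte markers, 4 passed the filter and 3 of these fell in TCM, beside 31.0% of all genes. Chad was at 0 in all 9 libraries and Matn1 was above 0 in 1. The summed level of the 6 was 648 to 666 in control, from 426 to 553 in TCM and from 236 to 280 after lipid depletion. Most of it was Sox9, with means of 464, 477 and 219, which was not called in TCM against control (limma adjusted p = 0.814). Acan, Matn3 and Comp were lower than control in both treated groups. The part of these markers in the results for Col2a1, Col9a2, Col10a1 and Col11a2 was not tested.

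The fibril-associated chains were led by Col12a1, whose product binds the surface of type I fibres. It had 512654, 467915 and 571812 in control, 152274, 180758 and 169759 in TCM, and 216666, 181049 and 198475 in lipid-depleted TCM. Both treated groups were far below control, and lipid-depleted TCM replicate 2 was close to TCM replicate 2. Col12a1 fell by 1.63 on the log2 scale in TCM (SE 0.09, limma adjusted p = 6.12e-09) and by 1.38 in lipid-depleted TCM (limma adjusted p = 2.67e-08). The difference of 0.25 between the treated groups (limma adjusted p = 0.0355) was lost in 5 of the 9 fits that left out a library, namely control replicate 1, TCM replicate 1 or 3, and lipid-depleted TCM replicate 1 or 3, with limma adjusted p from 0.0526 to 0.149. It was also lost when no filter on low counts was used (limma adjusted p = 0.0686).

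Col14a1, whose product also coats type I fibres, had 1431, 1351 and 1413 in control, 404, 377 and 401 in TCM, and 506, 498 and 532 in lipid-depleted TCM. The groups were separate, with the treated groups close together. Its log2 change was -1.83 in TCM (limma adjusted p = 1.18e-10), 0.38 for lipid-depleted TCM over TCM (limma adjusted p = 0.000407) and -1.45 against control (limma adjusted p = 9.17e-10). Col16a1, a fibril-associated chain of skin and other tissues, had 17040, 18365 and 16775 in control, 12798, 14212 and 15587 in TCM, and 13899, 15189 and 14774 in lipid-depleted TCM. Its treated groups overlapped each other below control. The log2 change of -0.30 in TCM (limma adjusted p = 0.00177) and of -0.25 in lipid-depleted TCM (limma adjusted p = 0.00536) were both lost with equal library totals (limma adjusted p = 0.0744 and 0.185). The treated groups differed by 0.05 without a call (limma adjusted p = 0.604).

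Col9a2, a type IX chain found on cartilage fibres, had 133, 111 and 109 in control, 11.4, 22.7 and 14.4 in TCM, and 56.3, 67.9 and 54.7 in lipid-depleted TCM. The groups were separate, and the log2 change was -2.84 in TCM (limma adjusted p = 3.75e-07), 1.87 for lipid-depleted TCM over TCM (limma adjusted p = 3.66e-05) and -0.97 against control (limma adjusted p = 0.00307). Col20a1 moved the other way, with 11.7, 12.7 and 21.9 in control, 61.8, 51.1 and 62.6 in TCM, and 89.4, 126 and 116 in lipid-depleted TCM. Every treated library was above every control library. Its log2 change was 1.90 in TCM (limma adjusted p = 2.01e-05) and 2.80 in lipid-depleted TCM (limma adjusted p = 5.57e-07), with 0.90 between the treated groups (limma adjusted p = 0.00913). Col20a1 shares 79 exon bases on the same strand with the gene BX649560.1, which had a mean of 459 in control, 634 in TCM and 494 after lipid depletion, so its counts are uncertain. Col22a1, a chain of muscle and tendon junctions, stayed below 25 in every library. It was called lower in TCM than in control (log2 -1.08, limma adjusted p = 0.0252) and higher in lipid-depleted TCM than in TCM (log2 1.36, limma adjusted p = 0.0108), with the first call lost without control replicate 1 or 2 or TCM replicate 3 (limma adjusted p from 0.0718 to 0.0904) and the second without lipid-depleted TCM replicate 1 (limma adjusted p = 0.0588). The first call was also lost with no filter (limma adjusted p = 0.0579).

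Type VI collagen forms beaded filaments around cells from the products of Col6a1, Col6a2 and Col6a3. Col6a1 had 151307, 158527 and 150296 in control, 87335, 98318 and 101421 in TCM, and 107336, 113496 and 115886 in lipid-depleted TCM. Col6a2 had 109081, 114052 and 111021 in control, 54658, 73291 and 74796 in TCM, and 70436, 73162 and 74188 in lipid-depleted TCM. The treated groups were separate for Col6a1 and overlapped for Col6a2. Col6a1 had a log2 change of -0.68 in TCM (limma adjusted p = 5.2e-07) and 0.23 for lipid-depleted TCM over TCM (limma adjusted p = 0.00597). Col6a2 fell by 0.73 on the log2 scale in TCM (limma adjusted p = 1.83e-05), and its difference of 0.12 between the treated groups was not called (limma adjusted p = 0.33).

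Col6a3 had 282527, 271066 and 307777 in control, 109177, 131662 and 125882 in TCM, and 128970, 118824 and 126755 in lipid-depleted TCM. Its treated groups overlapped and lay far below control. Its log2 change was -1.23 in TCM (SE 0.07, limma adjusted p = 1.28e-08) and -1.20 in lipid-depleted TCM (limma adjusted p = 1.55e-08), and the difference between them was 0.03 (SE 0.07, limma adjusted p = 0.728). Against control in lipid-depleted TCM, Col6a1 was at log2 -0.45 (limma adjusted p = 2.28e-05) and Col6a2 at -0.62 (limma adjusted p = 8.16e-05).

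Col7a1 encodes the anchoring fibril chain that ties the epidermis to the dermis. It had 10024, 10348 and 10226 in control, 6990, 8024 and 8603 in TCM, and 7409, 7968 and 7832 in lipid-depleted TCM. Both treated groups were lower and overlapped, at log2 -0.38 (limma adjusted p = 0.000225) and -0.40 (limma adjusted p = 0.000145), with -0.02 between them (limma adjusted p = 0.817).

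The multiplexins Col15a1 and Col18a1, chains of the basement membrane zone, went in opposite directions. Col15a1 had 10851, 10919 and 10718 in control, 3045, 3682 and 3403 in TCM, and 2134, 2154 and 2213 in lipid-depleted TCM. Lipid-depleted TCM was the lowest group, and no groups overlapped. The change on the log2 scale was -1.69 in TCM (limma adjusted p = 1.26e-10), and lipid-depleted TCM lay a further -0.64 from TCM (limma adjusted p = 2.9e-06) and -2.32 from control (limma adjusted p = 9.24e-12). Col18a1, whose product carries the endostatin fragment, had 9651, 10315 and 9696 in control, 22346, 25942 and 26463 in TCM, and 16087, 17502 and 16612 in lipid-depleted TCM. It rose 2.51-fold in TCM (log2 1.33, SE 0.06, limma adjusted p = 1.54e-09). Lipid-depleted TCM lay between, at log2 -0.57 from TCM (limma adjusted p = 1.02e-05) and 0.76 from control (limma adjusted p = 3.03e-07).

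Among the transmembrane chains, Col23a1 had 836, 841 and 822 in control, 1415, 1161 and 1396 in TCM, and 658, 692 and 709 in lipid-depleted TCM. It was high in TCM and slightly below control in lipid-depleted TCM, with no overlap. In log2 terms the change was 0.66 in TCM (limma adjusted p = 7.94e-06) and -0.94 for lipid-depleted TCM over TCM (limma adjusted p = 8.06e-07). The -0.28 against control (limma adjusted p = 0.00659) was lost with equal library totals (limma adjusted p = 0.183). Col25a1, a transmembrane chain known from neurons and brain, had 548, 586 and 634 in control, 239, 243 and 223 in TCM, and 230, 217 and 199 in lipid-depleted TCM. Both treated groups were low and overlapped, at log2 -1.32 (limma adjusted p = 7.1e-08) and -1.45 (limma adjusted p = 2.74e-08) from control, with -0.13 between them (limma adjusted p = 0.285). Col28a1, which encodes a beaded filament-like chain with von Willebrand domains, had 192, 219 and 208 in control, 341, 352 and 320 in TCM, and 134, 174 and 172 in lipid-depleted TCM. TCM was again the high group, at log2 0.71 above control (limma adjusted p = 0.000177), and lipid-depleted TCM lay at -1.08 from TCM (limma adjusted p = 1.01e-05). The -0.37 of Col28a1 against control (limma adjusted p = 0.0145) was lost with equal library totals (limma adjusted p = 0.115), and when control replicate 2 (limma adjusted p = 0.0567) or lipid-depleted TCM replicate 1 (limma adjusted p = 0.0699) was left out.

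The remaining chains were scarce. Col17a1, a hemidesmosome chain made mainly by keratinocytes, lay between 21.3 and 45.3 in all libraries and was called only between lipid-depleted TCM and TCM (log2 -0.80, limma adjusted p = 0.0202), a call lost without TCM replicate 3 or lipid-depleted TCM replicate 1 or 2 (limma adjusted p from 0.0532 to 0.0715) or with no filter (limma adjusted p = 0.0602). Col9a3, Col6a4, Col26a1 and Col4a6 were called in no comparison. Col9a3 shares 234 exon bases on the opposite strand with Tcfl5, and without TCM replicate 2 it was called higher in TCM than in control (limma adjusted p = 0.00379). Without that library Col6a4 was called lower in TCM than in control (limma adjusted p = 0.00729). Below the filter were Col4a3, Col6a5, Col6a6, Col9a1, Col13a1 and Col19a1, none of which exceeded 12.1 normalized counts in any library.

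Ratios were taken for pairs of chains that assemble together, build the same fibres or share a collagen type. Several pairs had group ratios that did not overlap. Ratios are of normalized counts within a library, so they do not depend on scaling. They are not divided by transcript length, so they compare groups and not the levels of the chains. The ratio of Col1a1 to Col1a2 was 1.12, 1.13 and 1.13 in control, 0.576, 0.746 and 0.769 in TCM, and 0.691, 0.712 and 0.691 in lipid-depleted TCM. The mean log2 ratio of this pair was 0.17 in control, -0.53 in TCM and -0.52 after lipid depletion, so both treated groups were below control and overlapped each other. The ratio of Col3a1 to Col1a1 was 0.503, 0.490 and 0.482 in control, 1.90, 1.504 and 1.39 in TCM, and 1.16, 1.14 and 1.18 in lipid-depleted TCM, and its groups were separate. The count ratio of Col8a1 to Col8a2 was 7.45, 7.51 and 7.72 in control, 28.4, 25.7 and 21.2 in TCM, and 7.97, 8.32 and 8.87 in lipid-depleted TCM. The last group was near control and apart from TCM.

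For the type V pair, the mean log2 ratio of Col5a1 to Col5a2 was -0.39 in control, -0.98 in TCM and -1.002 after lipid depletion. The log2 ratio of Col6a3 to Col6a1 was 0.90, 0.35 and 0.15 in the same order, while that of Col6a1 to Col6a2 was 0.46, 0.51 and 0.63, with TCM overlapping both other groups. Col4a1 and Col4a2 stood at 0.51 in control, 0.34 in TCM and 0.52 after lipid depletion. For Col4a5 to Col4a1 the values were -3.65, -2.65 and -2.84, and for Col11a1 to Col5a1 they were -6.13, -7.61 and -5.82. Of the 27 differences tested by two-sided exact permutation, 22 had p = 0.1, the smallest possible, and 0.123 after Benjamini-Hochberg adjustment, so the design could not place any of them below 0.05. Ratios of other gene pairs were not computed, so the count of 22 is not shown to be particular to collagen chains.

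**Figure D4:**
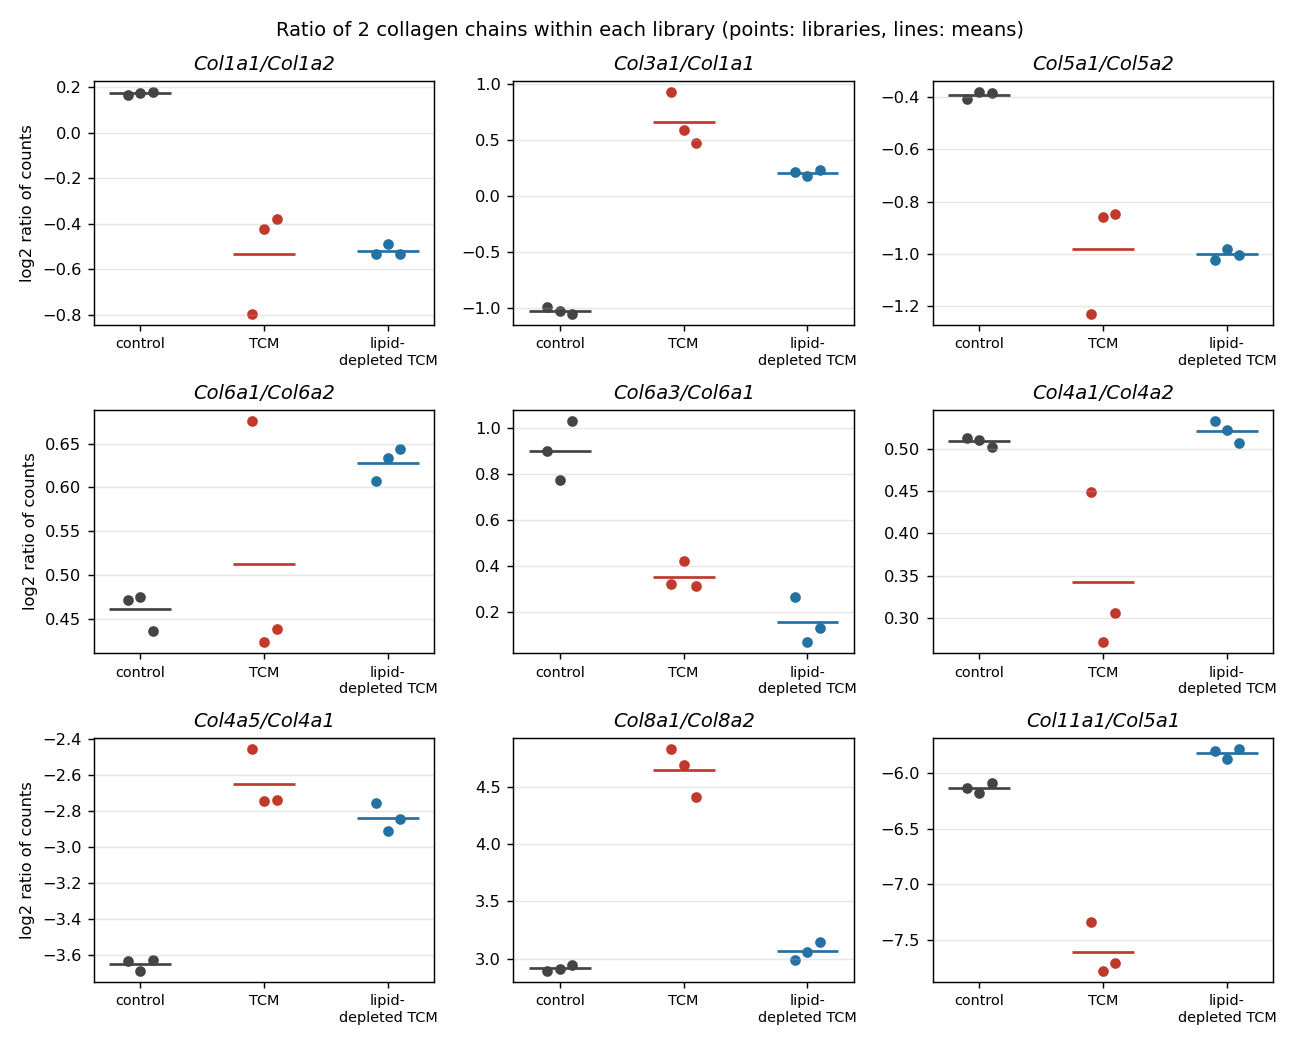
Each panel gives the log2 ratio of a pair of chains (y axis) in each library of control, TCM and lipid-depleted TCM, with a line at the group mean. For Col1a1/Col1a2 and Col5a1/Col5a2 both treated groups lie below control, while for Col8a1/Col8a2 lipid-depleted TCM (mean 3.07) lies near control (2.92) and TCM (4.64) stands apart.

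Several members are neighbours in the genome. Col4a1 and Col4a2 lie head to head on chromosome 8 with starts 21 bases apart, and both fell in TCM, by 0.59 and 0.42 on the log2 scale. Col4a6 and Col4a5 lie head to head on the X chromosome with starts 1309 bases apart. Col4a5 rose in TCM by log2 0.41 and Col4a6 was at 0.03 without a call. Col3a1 and Col5a2 lie tail to tail on chromosome 1 with 24614 bases between them, with log2 changes of -0.10 (not called) and -0.38. Coordinates are those of GENCODE M21 on GRCm38.

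The other genes of collagen production and turnover were described in 6 lists with 58 genes, of which 57 were tested. In TCM against control 39 fell and 10 rose, beside 31.0% and 29.5% of all genes. In lipid-depleted TCM 25 were higher than in TCM and 11 lower, beside 22.7% and 22.5% of all genes. Against control, lipid-depleted TCM had 37 lower and 15 higher, beside 30.6% and 29.4% of all genes. Of the 15 enzymes and partners that modify the chains before folding, 14 fell in TCM, led by the proline hydroxylases P4ha3 (11829 ± 308 in control and 3425 ± 198 in TCM, SD, n = 3; log2 -1.79, limma adjusted p = 9.66e-12) and P3h1 (log2 -1.33, limma adjusted p = 1.01e-10). P3h2, a related enzyme, rose from 67.5 ± 8.76 to 271 ± 29.2 (log2 1.99, limma adjusted p = 3.47e-08). In lipid-depleted TCM against TCM, 6 of these 15 were higher, with P4ha3 at log2 0.49 and Crtap, a partner of P3h1, at 0.38, and 2 were lower, P4ha1 at -0.36 and Plod3 at -0.31 (limma adjusted p at most 0.000151 for the 4). Against control, lipid-depleted TCM had 13 lower and 2 higher, the latter being P3h2 at 1.91 and P4ha2 at 0.15.

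Of 10 folding and export genes, 7 fell and 1 rose in TCM. The chaperones Fkbp10 (log2 -1.43, limma adjusted p = 8.09e-11) and Fkbp14 (log2 -1.29, limma adjusted p = 6.12e-09) had the largest falls, and Mia3, which exports large cargo from the endoplasmic reticulum, rose (log2 0.57, limma adjusted p = 3.51e-07). Between the treated groups 4 were higher and 3 lower in lipid-depleted TCM, with Mia3 at -0.27 and Sec24d, a coat protein of export vesicles, at 0.29. Lipid-depleted TCM against control had 9 lower and 1 higher. Of 8 tested genes for propeptide removal, 6 fell and 1 rose in TCM, with the protease Tll1 at log2 -1.08 (limma adjusted p = 1.54e-09) and the enhancer Pcolce2 at -0.84 (limma adjusted p = 1.24e-05). Both were lower still in lipid-depleted TCM than in TCM, at -0.74 and -0.89, where 4 of the 8 were lower and 1 higher. Against control, lipid-depleted TCM had 6 lower and 1 higher.

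Crosslinking enzymes of the lysyl oxidase family numbered 5, of which 4 fell in TCM and 0 rose by limma. Lox had 121883 ± 2566 normalized counts in control, 49778 ± 2114 in TCM and 120328 ± 3062 after lipid depletion (SD, n = 3). It fell by 1.29 on the log2 scale in TCM (limma adjusted p = 1.15e-10) and was higher by 1.27 in lipid-depleted TCM than in TCM (limma adjusted p = 7.01e-10). Loxl2 was at log2 -1.39 in TCM (limma adjusted p = 2e-11) and -1.04 in lipid-depleted TCM (limma adjusted p = 2.65e-10). Between the treated groups 2 of the 5 were higher and 2 lower, and 3 were lower than control in lipid-depleted TCM.

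Of 8 receptors and uptake genes, 5 fell and 2 rose in TCM. Itga11, the integrin chain for fibrillar collagen, had 70945 ± 1387 in control, 15251 ± 926 in TCM and 27519 ± 394 after lipid depletion, and fell by 2.22 on the log2 scale in TCM (limma adjusted p = 1.36e-12). Itga1 fell by 1.79 (limma adjusted p = 8.3e-12), and the rises were Itga10 (log2 0.88) and the receptor kinase Ddr2 (log2 0.18). Lipid-depleted TCM had 4 of the 8 higher than TCM and 0 lower by limma, with Itga11 at 0.85 (limma adjusted p = 2.25e-08). It had 5 lower and 3 higher than control.

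The last list held 11 genes for collagen cleavage. In TCM 5 rose and 3 fell, with the gelatinase Mmp2 at log2 0.54 (limma adjusted p = 9.17e-08), the collagenase Mmp13 at 1.95 (limma adjusted p = 0.000503) and the membrane proteases Mmp14 at -0.65 (limma adjusted p = 2.24e-07) and Mmp16 at -1.30 (limma adjusted p = 3.3e-07). Mmp13 was scarce, at 17.5 ± 6.25 normalized counts in control and 74.1 ± 35.5 in TCM (SD, n = 3), beside a mean of 13229 for Mmp2 in control. In lipid-depleted TCM 8 were higher and 0 lower than in TCM by limma, led by Fap, a fibroblast surface protease, from 203 ± 15.3 to 550 ± 19.7 (log2 1.43, limma adjusted p = 1.43e-07). Against control 8 were higher and 1 lower in lipid-depleted TCM, with Mmp2 at 1.08 (limma adjusted p = 1.38e-10).

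**Figure D5:**
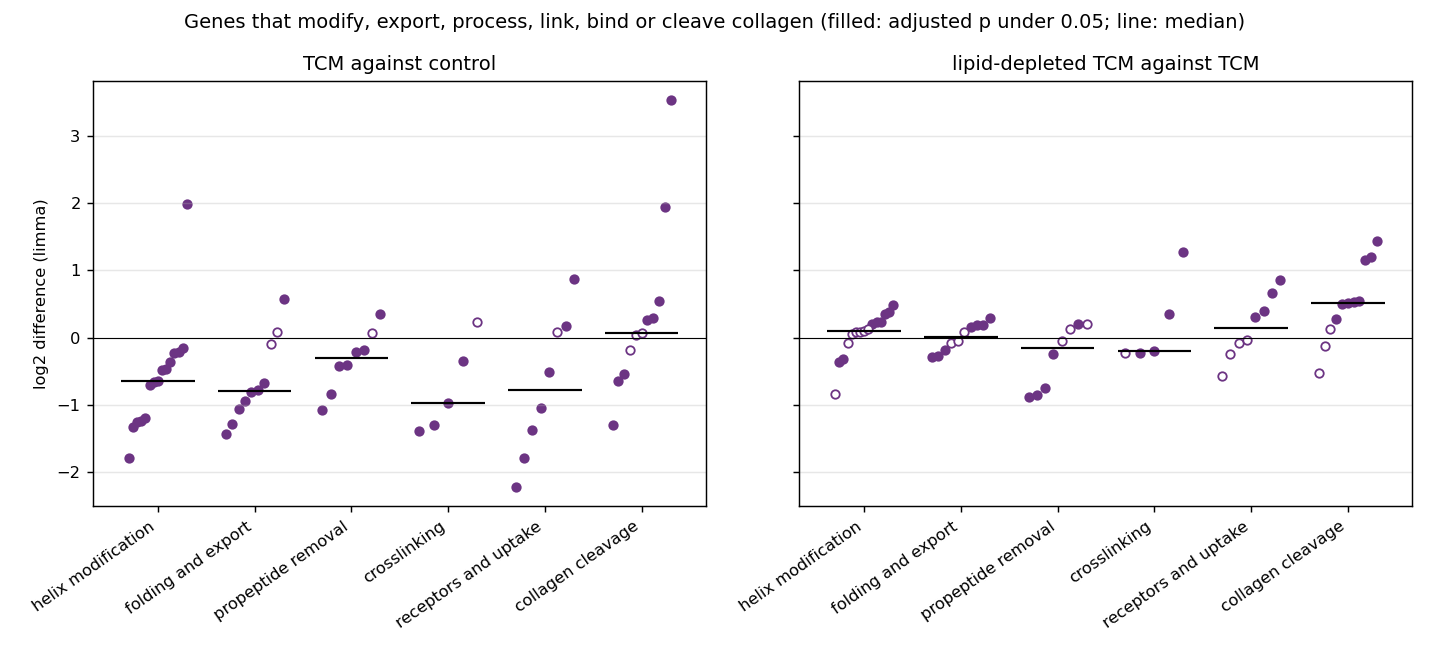
Points give the limma log2 difference (y axis) of each tested gene in the 6 lists of collagen production and turnover, for TCM against control (left) and lipid-depleted TCM against TCM (right); filled points have an adjusted p below 0.05 and lines are list medians. On the left the medians of all lists but cleavage (0.08) lie below 0, from -0.31 for propeptide removal to -0.97 for crosslinking, and on the right the cleavage list has the highest median (0.52).

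The labelled cell type was checked against marker genes. The 10 fibroblast markers were all tested and summed to 1197700 to 1279740 normalized counts in control, from 1076380 to 1342820 in TCM and from 1367930 to 1437720 after lipid depletion. Most of each sum was Fn1, with means of 685207 in control, 807858 in TCM and 878259 after lipid depletion. In TCM 5 of the 10 were higher and 4 lower, beside 29.5% and 31.0% of all genes. Those higher were Pdgfra (log2 1.44), the collagen-binding proteoglycan Dcn (1.21), Lum (0.59), Thy1 (0.38) and Fn1 (0.23), and those lower were S100a4 (-1.36), Postn (-0.94), Vim (-0.64) and Fbln1 (-0.32), while Pdgfrb was not called (0.04). Of 8 pericyte and smooth muscle markers 7 fell and 1 rose in TCM, beside 31.0% and 29.5% of all genes. In lipid-depleted TCM 6 were higher than in TCM, beside 22.7% of all genes. They summed to 35315 to 37358 in control, from 12901 to 14595 in TCM and from 18487 to 18661 after lipid depletion, the same order of groups as for most fibrillar chains, and none was at 0 in all libraries. Their part in the collagen results was not tested. Keratinocyte markers summed to at most 196, and markers of melanocytes or melanoma cells, mostly Mitf, to at most 1121 in any library. In lipid-depleted TCM 2 of the latter were higher than in TCM and 1 lower. Mlana was 1 of the 2, at 29.3 to 37.5 there and at most 6.74 in other libraries (log2 3.09, limma adjusted p = 0.000297). Endothelial, immune, skeletal muscle, Schwann and adipocyte markers summed to at most 190, 439, 922, 483 and 769.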

How the data were processed

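The authors deposited normalized counts, a signal per gene in which each read count was divided by a size factor of its library, as the values themselves show. Reads were trimmed with Trim Galore 0.6.6, checked with FastQC, aligned to mm10 with STAR 2.7.9a and handled with DESeq2, per the submitters' processing notes. Libraries came from a stranded TruSeq kit, per the labels' protocols. The counting program, annotation and strand setting, not given in the sources used here, leave overlapping genes uncertain.

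Genes were named from GENCODE M21, in which 55141 of the 55401 identifiers were found without their version. Transcript length was that of the longest APPRIS principal transcript, and levels are ranked between genes per kilobase. Shares, sums, ratios, count thresholds and the order in the figure of levels use counts not divided by length. The main test was limma 3.58.1 with a variance trend on log2(normalized count + 1), fitted over 16950 genes with at least 10 in 3 libraries and all 9 libraries, with Benjamini-Hochberg adjustment and a threshold of 0.05. Shares and ratios were compared by two-sided exact permutation tests (SciPy 1.17.1). Whole reads were recovered from 100% of values within 0.01, and edgeR 4.0.16 on them called 10232, 7744 and 10174 genes, in the order of the report's comparisons. The limma step alone was run on simulated data, for TCM against control, and the other steps were not.

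Values in each library are given for chains with a mean of at least 500 in their highest group, or of at least 50 with a called change of at least 2-fold. In other lists the 2 largest called rises and falls with a mean of at least 50 were eligible to be named, and the fibroblast markers are given in full. The members, classes and lists were chosen with earlier results of these data known. Alternatives were other pseudocounts, filters and scalings, edgeR, DESeq2 1.42.0, the compared groups alone, a replicate block and leaving out each library.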

Additional observations from a re-analysis of the deposited data

How the results depend on the processing

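Of 2259 estimates of single chains under 20 alternative settings, 2173 kept their direction and their side of the threshold, 37 lost a call, 24 gained one and 25 turned their direction, of which 1 was called in either fit. That was Col3a1 in lipid-depleted TCM against control, at log2 0.14 with equal library totals and -0.01 as reported, and at 0.10 with totals without collagen chains. With these scalings Col3a1 in TCM against control turned to 0.062 and 0.016, and Col6a4 in lipid-depleted TCM against control to 0.096 and 0.064. Equal totals moved the median of all genes by 0.16 in TCM and 0.15 in lipid-depleted TCM against control, and totals without collagen chains by 0.11 and 0.12. Requiring at least 2-fold left 4 chains higher and 16 lower in TCM against control, 5 and 1 in lipid-depleted TCM against TCM, and 2 and 8 in lipid-depleted TCM against control, since fewer changes reach that size. Leaving out single libraries gave 7 to 8 higher and 24 to 26 lower, 14 to 19 and 5 to 7, and 4 to 4 and 23 to 26 in the same order. The differences in the share of reads ranged over the same fits from -3.13 to -2.85, 0.708 to 0.993 and -2.18 to -2.11 percentage points. Deviations of libraries with the same replicate number had correlations of -0.025 to 0.0274. Those of libraries with different numbers in different groups ranged from -0.0701 to 0.0842. Whether libraries with the same number shared an animal, culture or day was not tested. With a replicate block, 7 chains were higher and 25 lower, 17 and 6, and 4 and 25. The share differences stayed at -2.99, 0.853 and -2.14 percentage points. Every replicate number occurs in each group, so a block cannot change these differences and their equality is no check. The exact permutation p of each was 0.25 with the block and 0.1 without it. The 162 ratio differences and 24 share differences under alternatives moved by less than the spread between libraries or kept their direction. Ratio differences near 0 did turn their sign with a library left out. They included Col1a1 to Col1a2 (log2 0.014 with all libraries) and Col5a1 to Col5a2 (-0.022) between the treated groups. Col6a1 to Col6a2 between TCM and control (0.052) was another. The other 19 turns of single chains came with a library left out. In lipid-depleted TCM against TCM the ranges were -0.045 to 0.090 for Col6a3, -0.029 to 0.20 for Col6a2, -0.027 to 0.12 for Col16a1, -0.10 to 0.046 for Col7a1, -0.24 to 0.091 for Col10a1 and -0.093 to 0.035 for Col4a6. In lipid-depleted TCM against control they were -0.026 to 0.0070 for Col3a1, -0.065 to 0.063 for Col4a6, -0.11 to 0.038 for Col6a4, -0.023 to 0.47 for Col22a1 and -0.33 to 0.44 for Col26a1, and in TCM against control -0.038 to 0.082 for Col4a6. Single libraries decided calls of scarce chains (Col2a1, Col4a4, Col6a4, Col9a3, Col17a1, Col22a1) and of abundant ones (Col4a2, Col4a5, Col5a1, Col5a3, Col12a1), and of Col28a1. The cause was not tested.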

Other observations

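Per kilobase of transcript, the chains after Col1a1, Col1a2 and Col3a1 in control were Col5a2 at a mean of 53188 ± 515 normalized counts and Col12a1 at 44954 ± 4527 (SD, n = 3 each). Col5a1 at 31957 ± 614 and Col6a3 at 31899 ± 2087 changed order between control libraries. Col1a1 at 156373 ± 3080 was above Col1a2 at 153658 ± 2449 in each of the 3 control libraries, by a small margin. In TCM the order among these was Col5a2 at 40761 ± 988, Col5a1 at 16433 ± 2623, Col12a1 at 14560 ± 1248 and Col6a3 at 13581 ± 1297. The ranges of the last 3 overlapped, but their order was the same in each TCM library. In lipid-depleted TCM Col1a2 was first at 104771 ± 1595, followed by Col3a1 at 81314 ± 1887 and Col1a1 at 65951 ± 1721. Fibril-associated chains held 12.7% ± 1.08 of collagen reads in control, 8.30% ± 0.404 in TCM and 8.03% ± 0.688 after lipid depletion, and network chains 6.17% ± 0.138, 8.42% ± 0.119 and 8.37% ± 0.122.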
